A study of Mus musculus with 230 samples.

Results

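Cells called cycling or non-cycling by their transcripts were compared within the E15 sample of a single-cell RNA-seq study of the mouse brain. The cells were chosen on measured values. A cell was called cycling when at least 5 of 20 genes of G2 phase and mitosis reached 1 RPKM (reads per kilobase of gene, scaled to the reads of the library), and non-cycling when 0 or 1 of them did. These 20 rule genes are Mki67, Top2a, Cdk1, Ccnb1, Ccnb2, Ccna2, Aurka, Aurkb, Bub1, Bub1b, Cenpe, Cenpf, Cenpa, Plk1, Birc5, Ube2c, Nusap1, Tpx2, Hmmr and Kif11. Of the 121 E15 cells, 18 were cycling (14.9%, exact 95% binomial interval 9.06 to 22.5%, counting error only) and 84 were non-cycling. The other 19 E15 cells, with 2 to 4 rule genes, were left out of the comparison and are described as the between class. The series has 229 usable cells in all.

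All cells came from C57BL/6 mice of the genotype Neurog2CreERT x Ai14+/+, given tamoxifen 12 h before harvest. Neurog2 is a proneural factor, made by progenitors on their way to glutamatergic neurons, and its control elements drive a Cre recombinase that works only with tamoxifen. Ai14 is a reporter allele that makes the red protein tdTomato for good once Cre has acted. A sorted cell has therefore had Cre activity but need not still transcribe Neurog2. The E15 cells were sorted from the dissected pallium, the dorsal part of the embryonic forebrain that forms the cortex (the series' design text gives the age as E15.5), and a second sample was taken 2 days after birth (P2) from the dorsal part of the subventricular zone. Every library is 1 cell, captured on a microfluidic chip and checked by eye there, and the labels name no animal or litter. Each age is therefore 1 sample, no test or p-value is given, and the spread shown is that between cells and between the 2 groups of cell titles at E15, called set A (60 cells) and set B (61 cells) from the format of the titles. These sets may share animals.

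In the embryonic cortex, radial glia divide at the ventricle and give rise to intermediate progenitors, which express the T-box factor Eomes (Tbr2), move to the subventricular zone and divide there to make glutamatergic neurons. A dividing cell copies its DNA in S phase with licensing factors, polymerases and nucleotide-making enzymes, and then builds a spindle, condenses its chromosomes and checks their attachment in G2 phase and mitosis. The mitotic genes are switched on together late in the cycle, often through promoters that hold a cell cycle homology region and CCAAT boxes, whereas many S phase genes answer to E2F factors. A cell in G1 phase has few transcripts of the rule genes, so the non-cycling class can hold cycling cells in G1 phase as well as neurons.

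Promoter windows of 4 genes that head the comparison below are printed first, since their genes stood highest in the cycling cells. They were taken from RefSeq (build GRCm38.p6), run 5′ to 3′ on the gene's strand from 250 bases before to 50 bases after the annotated start, and were chosen as the first 4 of the 15 highest genes with an entry that could be printed. Capitals mark the cell cycle homology words TTTGAA and TTCGAA and the CCAAT box, read on either strand (TTCAAA and ATTGG are the reverse forms), and the E2F-type words TTTCCCGC and TTTGGCGC. No word contains another. Rrm2 encodes a subunit of ribonucleotide reductase, Spc25 a subunit of the outer kinetochore, Kpna2 an importin of nuclear transport and Cks2 a small partner of Cdk1.
Rrm2, chr12:24708004-24708303, plus strand: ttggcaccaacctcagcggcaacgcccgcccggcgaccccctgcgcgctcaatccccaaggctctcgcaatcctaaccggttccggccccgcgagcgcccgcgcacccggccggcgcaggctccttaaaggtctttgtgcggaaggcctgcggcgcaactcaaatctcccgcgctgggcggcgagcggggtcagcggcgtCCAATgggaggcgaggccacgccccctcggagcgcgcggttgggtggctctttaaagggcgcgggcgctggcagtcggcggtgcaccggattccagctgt
Spc25, chr2:69206164-69206463, minus strand: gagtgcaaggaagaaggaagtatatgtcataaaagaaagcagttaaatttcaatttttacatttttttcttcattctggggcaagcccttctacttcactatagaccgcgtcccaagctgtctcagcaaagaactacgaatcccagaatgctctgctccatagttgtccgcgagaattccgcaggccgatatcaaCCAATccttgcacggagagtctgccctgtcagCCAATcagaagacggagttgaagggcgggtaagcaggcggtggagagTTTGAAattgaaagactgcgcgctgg
Kpna2, chr11:106999476-106999775, minus strand: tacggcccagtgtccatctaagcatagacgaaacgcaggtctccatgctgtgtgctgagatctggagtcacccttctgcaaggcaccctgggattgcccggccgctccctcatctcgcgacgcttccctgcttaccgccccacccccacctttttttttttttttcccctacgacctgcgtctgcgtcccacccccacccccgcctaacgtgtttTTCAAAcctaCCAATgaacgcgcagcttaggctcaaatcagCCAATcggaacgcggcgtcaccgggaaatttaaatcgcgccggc
Cks2, chr13:51644982-51645281, plus strand: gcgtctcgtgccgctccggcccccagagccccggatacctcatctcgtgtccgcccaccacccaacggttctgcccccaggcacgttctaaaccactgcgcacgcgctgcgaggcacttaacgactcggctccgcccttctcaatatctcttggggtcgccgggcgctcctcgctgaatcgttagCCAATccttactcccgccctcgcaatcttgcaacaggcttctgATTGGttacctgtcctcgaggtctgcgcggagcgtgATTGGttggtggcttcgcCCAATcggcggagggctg

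Each of these windows held at least 1 CCAAT box, and those of Spc25 and Kpna2 also held a cell cycle homology word. In the Rrm2 window the CCAAT box lay at positions 201 to 205, counted from 1 at the 5′ end. In the Spc25 window CCAAT boxes lay at 196 to 200 and 228 to 232 and the homology word at 275 to 280. Kpna2 had its homology word at 216 to 221, just before a CCAAT box at 226 to 230, and a further CCAAT box at 257 to 261. Cks2 had 4 CCAAT boxes and no homology word. Of the 15 highest genes, 11 had an entry, with 12 windows. Of the 12, 9 (75%) held a homology word and 11 (91.7%) a CCAAT box. Over all 32851 mouse windows of the same length the shares were 19.2% and 37.4%. Prc1 had more than 1 window, largely overlapping and each with both words, so windows are not separate counts. For the 15 lowest genes, with 20 windows for 12 genes, the shares were 15% and 30%, again with several windows for some genes. Of the spindle list, 28 of 30 genes had an entry, and a homology word stood in 26 of 32 windows (81.2%) and an E2F-type word in 2. Of the S phase list, 49 of 61 genes had an entry, with a homology word in 12 of 58 (20.7%) and an E2F-type word in 15 (25.9%, against 1.56% of all windows). The condensin list had an E2F-type word in 3 of 8 windows. These are matches of letters in a fixed window and do not show that a factor binds there.

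The number of rule genes per cell fell into separate ranges at E15. Of the 18 cycling cells, 13 had 17 to 20 rule genes (7 cells of set A and 6 of set B), 5 had 5 to 9, and no cell had 10 to 16. Set A and set B gave 9 cycling cells each, beside 47 and 37 non-cycling cells and 4 and 15 cells of the between class. The values of the rule genes describe the choice and are no finding. Top2a, the topoisomerase that untangles chromosomes, ran from 2.52 RPKM through a median of 113.7 to 362 RPKM in cycling cells and from 0 through 0 to 24.7 RPKM in non-cycling cells. Mki67, the gene of the Ki-67 antigen, reached 1 RPKM in 16 of the 18 cycling and 4 of the 84 non-cycling cells, and Cdk1, the kinase that drives entry into mitosis, in 13 and in 0 (a count of 0 of 84 cells allows a share of up to 3.57%).

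**Figure D1:**
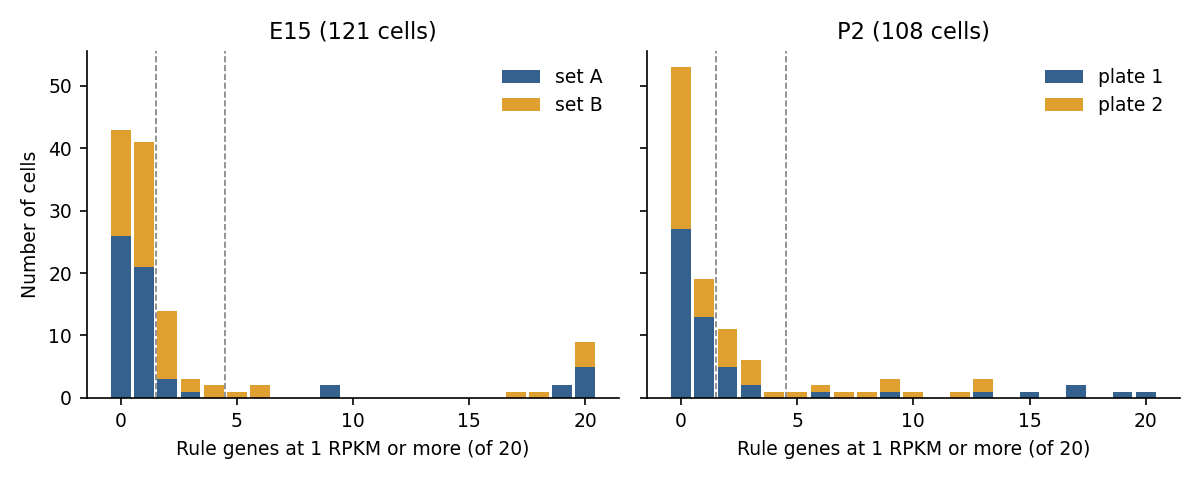
Number of cells (y axis) by the number of the 20 rule genes at 1 RPKM or more (x axis), for E15 (left, stacked by set) and P2 (right, stacked by plate). Dashed lines bound the between class: at E15 no cell had 10 to 16 rule genes, while the 18 cycling P2 cells spread from 5 to 20.

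At the limit of the rule the cells were few. The 1 cell with 5 rule genes, in set B, held Mki67 at 6.60, Top2a at 11.2, Ccnb1 at 24.0, Ccna2 at 3.21 and Hmmr at 67.2 RPKM. Just outside it, 2 cells of set B had 4 rule genes: in one of them Top2a was at 6.72 and Ccnb2 at 32.8 RPKM, and in the other Ccnb1 was at 18.2 and Nusap1 at 34.2 RPKM. The cell with 5 rule genes also stood apart by its other transcripts. It reached 1 RPKM for 5 of the 8 genes listed for Cajal-Retzius cells, the early reelin-secreting neurons of the cortical surface, where 78 of the 121 cells reached it for 0 of them, 40 cells for 1 and 2 cells for 2. Its level of Reln, which encodes reelin, was 187 RPKM against at most 41.0 RPKM in the other 120 cells, and Calb2, the calretinin gene, was at 5.46 RPKM there and at 0 in the others. Trp73, a defining gene of these neurons, was at 0.028 RPKM in it. This cell kept Eomes at 25.1 RPKM and had Neurod6 at 2.11 RPKM. Without it, 461 genes in place of 384 passed the fold used below.

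The 5 cells with 5 to 9 rule genes differed from the 13 cells with 17 to 20 in gene groups outside the rule too. Of 30 other spindle and cytokinesis genes, the 13 cells had between 21 and 29 at 1 RPKM or more, the 5 cells between 2 and 11, and non-cycling cells between 1 and 7. Of 61 S phase genes, the 13 cells had between 15 and 50 (median 23), the 5 cells between 3 and 10 (median 6) and the non-cycling cells between 1 and 17 (median 6). The 13 cells did not overlap the 5 in either count, and the 5 overlapped the non-cycling cells in both. Both are counts of detected genes, and the number of all detected genes is not given for the 13 and the 5 apart. Against the non-cycling cells, the median difference over all genes, as defined below, was 0.30 with the 13 and -0.08 with the 5. The part of detection in these counts was not tested. All 18 cells are kept as cycling below, as the rule says, and values for the 13 or the 5 are added where they differ.

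**Figure D2:**
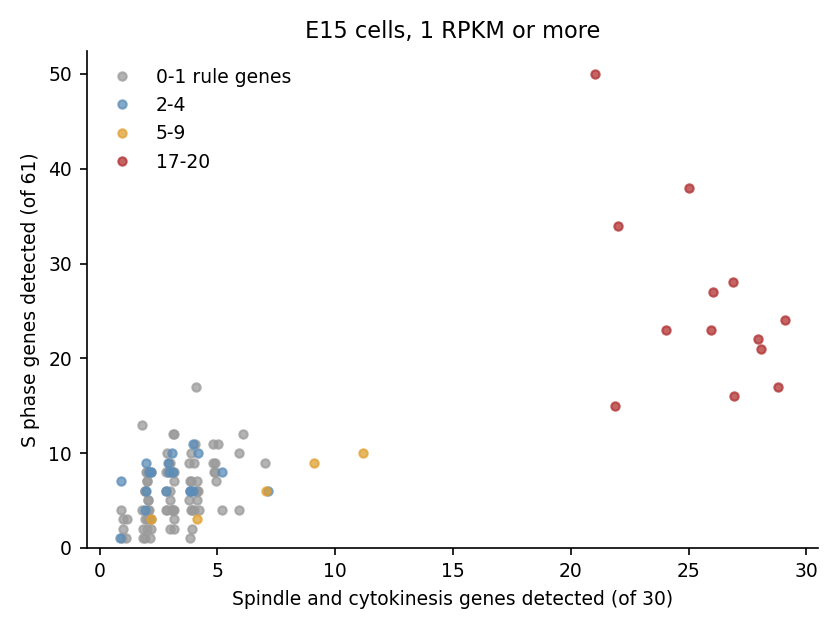
S phase genes (y axis, of 61) against spindle and cytokinesis genes (x axis, of 30, spread slightly sideways) at 1 RPKM or more in each of the 121 E15 cells, coloured by the number of rule genes. The 13 cells with 17 to 20 rule genes sit at 21 to 29 spindle genes and 15 to 50 S phase genes, apart from the 5 cells with 5 to 9, which lie among or close to the rest.

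Cycling cells also had more detected genes. A cell had a median of 3301 genes at 1 RPKM or more in the cycling class (1213 to 4329), 2999 in the between class and 2745 (809 to 3660) in the non-cycling class. The medians of the cycling and non-cycling classes were 3490 and 2595 genes in set A, and 3236 and 2871 genes in set B. Reads assigned to genes, recovered from the step of the lowest values, had medians of 3.58 M (1.59 to 6.06 M) in cycling and 3.07 M (0.79 to 5.68 M) in non-cycling cells. The mitochondrially encoded share of RPKM had medians of 6.35% (3.53 to 38.4%) and 9.33% (2.22 to 49.1%). These measures move with the classes, and their part in the differences below was not tested. Counts of higher and lower genes were 330 and 190 in cells paired on detected genes, 446 and 51 without cells with few detected genes, and 465 and 66 without cells above 20% mitochondrially encoded RPKM. No doublet caller was run on these 121 cells, and the part of wells that held 2 cells was not tested. No pair of E15 cells had identical values.

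Differences are given as the mean over cells of log2(RPKM + 1), cycling minus non-cycling, a scale that understates the change of low genes. A gene counts as higher or lower when this difference was at least 1 over all cells and in each set, which describes size and is not a test. Of 8857 genes outside the rule that were measured (1 RPKM reached by at least 10% of the cells in one class or the other), 384 were higher (4.34%) and 43 lower (0.485%). Over all 8857 genes the median difference was 0.19 (0.25 in set A and 0.07 in set B), and 65.9% of genes were above 0. With no filter on low values that median was -0.00068 over 19861 genes, and in the cells paired on detected genes it was 0.01. Of the 384 higher genes, 110 belonged to the gene lists described here and 274 did not. Of the 43 lower genes, 3 did. A gene that reached the 10% only through the cycling cells could hardly come out lower. Counts and medians, over the lists and over all genes, thus describe the choice of genes as well as the cells. The counts moved with the scale: a pseudocount of 0.1 gave 995 higher and 156 lower genes with a median of 0.42 over all genes, and the log2 of mean RPKM gave 555 and 620 with a median of 0.05.

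Genes of the mitotic spindle and of cytokinesis, the machinery that separates the chromosomes and then the cells, were higher as a group. Of 30 listed genes, all 30 were measured and 28 were higher, with a median difference of 3.10 (3.61 in set A and 2.86 in set B), beside 4.34% of all genes higher and the median of 0.19. Tacc3, which stabilises spindle microtubules, had 0 to 148 RPKM in cycling cells (median 34.3) and reached 1 RPKM in 15 of 18, against 2 of 84 non-cycling cells. Its difference was 4.25, and 4.26 in both sets. Kif23, the motor of the central spindle, was detected in 14 of 18 and in 1 of 84 cells, with a difference of 4.10. Prc1, which bundles the microtubules of the central spindle, had a median of 41.6 RPKM in cycling cells (0 to 187) and a highest non-cycling value of 8.66 RPKM. Of the 18 cycling cells, 13 lay above that value. Tubb5 and Kifc1, named after their values were seen, were the 2 genes of the list outside the count, at 0.55 and 0.38. Most spindle genes were thus seen in most cycling cells and in few of the others, with overlap from the 5 cells with fewer rule genes: all 13 cells with 17 to 20 rule genes held Tacc3, Kif23 and Prc1, and of the 5 others 2, 1 and 1 did.

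Kinetochore and spindle checkpoint genes, which tie chromosomes to the spindle and delay anaphase until all are attached, had 24 of 29 measured members higher and a median difference of 2.93. Spc25 had 0 to 347 RPKM in cycling cells (median 91.9) and reached 1 RPKM in 15 of 18, against 3 of 84 non-cycling cells, with a difference of 5.32 (5.78 in set A and 4.89 in set B). Cdca8, a subunit of the chromosomal passenger complex, and Cenpl, a centromere protein, had differences of 3.77 and 3.63. All 8 measured subunits of condensin, the complexes that compact chromosomes, were higher, with a median of 2.75. Smc2, the core ATPase of condensin, had 0 to 190 RPKM (median 72.8) in cycling cells and 0 to 129 RPKM (median 0) in the others, so the classes overlapped, and its difference was 4.41. Smc4 differed by 3.94, Ncapd2 by 3.27 and Ncapg, at 1 RPKM in no non-cycling cell, by 3.16.

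Among mitotic kinases, phosphatases and cyclin partners, 15 of 22 measured genes (25 listed) were higher and the median difference was 2.29. Pbk, a mitotic protein kinase, had 0 to 877 RPKM in cycling cells (median 173) and reached 1 RPKM in 14 of them, against 1 of 84 non-cycling cells at 51.8 RPKM. The difference was 5.89, with 7.37 in set A and 4.40 in set B. Cdc25c, the phosphatase that activates Cdk1 at mitotic entry, reached 308 RPKM and was detected in 14 of 18 cycling cells. In non-cycling cells its highest value was 0.13 RPKM, and 15 of the 18 cycling cells lay above it. The exons of Cdc25c overlap another annotated gene, and how reads on the 2 strands were counted is not given in the sources used here. Cks2 and Cks1b, the small subunits of Cdk complexes, differed by 4.60 and 4.47. Kpna2, outside the lists, had 0 to 400 RPKM in cycling cells (median 54.0) and 0 to 51.3 RPKM (median 0) in non-cycling cells, and its difference was 4.73, 4.76 in set A and 4.75 in set B. Cdca3, a factor for mitotic entry, and Cdca2, which targets a phosphatase to chromosomes, differed by 4.16 and 4.13.

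Of the 8857 measured genes outside the rule, 16 reached 1 RPKM in all 13 cells with 17 to 20 rule genes and in at most 8 non-cycling cells. The set was picked after the values were seen and on this same contrast, so it is a description only. They were Cenpl, Ncaph, Psrc1, Tacc3, Cit, Prc1, Kif22, Kif23, 2810417H13Rik, Ttk, Kif15, Rrm2, Cdca2, C330027C09Rik, Kif20a and Incenp. Rrm2 had the highest floor among them, at 30.5 RPKM in the lowest of the 13 cells, and Ttk and Kif23 were each seen in 1 non-cycling cell.

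**Figure D3:**
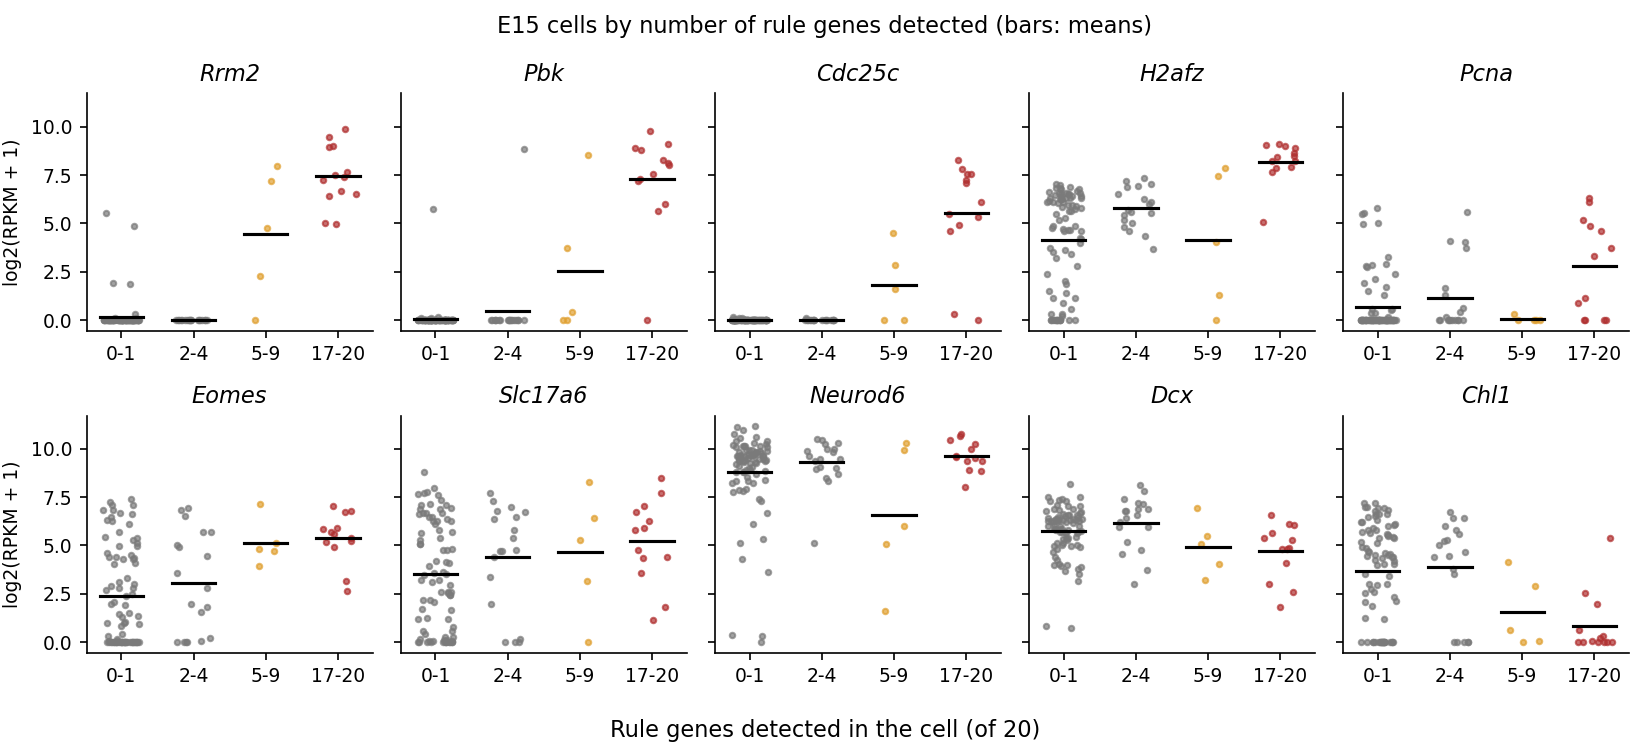
Level of 10 genes (y axis, log2(RPKM + 1)) in each E15 cell, with cells placed by the number of rule genes detected (x axis) and black bars for means. Rrm2, Pbk and Cdc25c are near 0 in most cells with 0 to 4 rule genes, Neurod6 is high in most cells of all groups, and Chl1 is near 0 in most of the 13 cells with 17 to 20.

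Genes of S phase and DNA replication differed less, and less evenly. Of 61 listed genes 52 were measured and 11 were higher, none was lower, and the median difference was 0.96 (1.46 in set A and 0.71 in set B). Rrm2 had the largest difference of all genes outside the rule. It had 0 to 946 RPKM in cycling cells (median 149) and 0 to 44.9 RPKM in non-cycling cells, and reached 1 RPKM in 17 of 18 and in 4 of 84. Its difference was 6.42 (7.70 in set A and 5.17 in set B). In the 5 cells with 5 to 9 rule genes Rrm2 was still found in 4, with a median of 26.3 RPKM. Rrm1, the other subunit of the enzyme, differed by 3.27, Dut, which clears dUTP, by 2.81, and Tipin, which steadies the replication fork, by 2.61.

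Markers often used for S phase were less widely detected. Pcna, the sliding clamp of the replication fork, had 0 to 78.7 RPKM (median 0.54) in cycling cells and 0 to 54.0 RPKM (median 0) in non-cycling cells, and was detected in 8 of 18 and 16 of 84. Its difference was 1.37, but 2.48 in set A and 0.18 in set B. Mcm2, a subunit of the replicative helicase, was found in 5 of 18 and 6 of 84 cells. None of the 5 cells with 5 to 9 rule genes held Pcna or Mcm2. Of the 13 others, 1 cell of set A with 19 rule genes stood out with 50 of the 61 S phase genes, and the lowest had 15. With the 13 cells alone as cycling, 22 S phase genes in place of 11 were higher and the median was 1.45, and 757 genes in all were higher.

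Chromatin proteins of dividing cells had 11 of 23 members higher, with a median of 1.89 (2.59 in set A and 1.13 in set B). H2afz, the gene of the histone variant H2A.Z, had 0 to 541 RPKM in cycling cells (median 270) and 0 to 130 RPKM in non-cycling cells (median 31.8). Of the 18 cycling cells, 14 lay above every non-cycling cell, although 66 of the 84 non-cycling cells also held it. Hmgb2, a chromatin protein of dividing cells, differed by 4.23 and Tmpo and Lbr, proteins of the inner nuclear membrane, by 3.14 and 3.08. Genes such as H2afz and Hmgb2 have close copies in the genome, and the handling of reads with several matches is not given in the sources used here. Of the DNA repair genes, 2 of 25 measured were higher (median 0.57), beside 4.34% of all genes. These were Rad21, a cohesin subunit, at 3.05 (0.85 in the pairs matched on detected genes) and the checkpoint kinase gene Chek2 at 1.97.

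G1 cyclins and their kinases set the cycling cells apart only a little. Of 15 measured genes 1 was higher, beside 4.34% of all genes, and the median was 0.37. It was Cdk6, a kinase partner of the D cyclins, at 1.27 (1.10 in set A and 1.40 in set B). Cdk6 did not pass among cells with Eomes, at 0.94, nor in the matched pairs, at 0.83 in set A. Ccnd2, the D cyclin of intermediate progenitors, had a median of 24.9 RPKM (0 to 124) in cycling and 6.13 RPKM (0 to 163) in non-cycling cells. The ranges overlapped, and the difference of 1.08 (1.62 in set A and 0.49 in set B) became -0.04 in 16 pairs of cells matched on detected genes. Ccnd1 was detected in 2 cycling cells and 1 non-cycling cell.

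Genes that restrain the cycle were also found in cycling cells. Of 18 listed genes for Cdk inhibitors and cell cycle exit, 13 were measured and 3 were at 0 in every E15 cell. Of the 13, 4 were higher and none was lower, beside 4.34% and 0.485% of all genes. The list's median was 0.75, with 11 genes above 0 and 2 below. The lowest gene stood at -1.29 over all cells but did not pass in both sets. Cdkn2d, which encodes the Cdk4 and Cdk6 inhibitor p19, had 0 to 143 RPKM in cycling cells (median 5.24) and 0 to 279 RPKM in non-cycling cells (median 0). It was detected in 9 of 18 and 17 of 84, with a difference of 2.09 (2.20 in set A and 1.87 in set B). Gadd45g, a growth arrest gene, differed by 1.67, Insm1, a zinc finger factor of intermediate progenitors, by 1.64, and the antiproliferative gene Btg1 by 1.38. Cdkn1b, the gene of the inhibitor p27, was detected in 17 of 18 cycling and 81 of 84 non-cycling cells, with medians of 32.4 and 14.4 RPKM. Cdkn1c, the gene of p57, gave 1.73 in set A and -1.17 in set B, so its difference of 0.30 had no common direction. In the matched pairs the list's median was 0.29 and Insm1 gave 0.76.

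The cycling cells carried markers of intermediate progenitors. Eomes was detected in 18 of 18 cycling cells, at 5.20 to 143 RPKM (median 39.2), and in 46 of 84 non-cycling cells, at 0 to 166 RPKM (median 1.64). All cycling cells were thus above 5 RPKM while the non-cycling class held cells without Eomes and cells as high. The difference was 2.95 (3.95 in set A and 1.84 in set B), and Eomes was in both the 13 cells and the 5. Of 14 measured genes of the list (18 listed), 4 were higher and none was lower, beside 4.34% and 0.485% of all genes. The list's median was 0.65 (1.22 in set A and 0.40 in set B), close to the 0.58 of the radial glia list described below. The higher genes were Eomes, Gadd45g, Insm1 and Neurog2. Gadd45g and Insm1 also stand in the cell cycle exit list above, so the higher genes of these lists are not separate results. Neurog2, whose regulatory sequences drive Cre in these mice, was detected in 10 of 18 and 20 of 84 cells (0 to 37.0 and 0 to 63.3 RPKM), with a difference of 1.31 (with the 13 cells alone, 0.85 in set A and 1.88 in set B). Btg2, an antiproliferative gene of progenitors that will make neurons, had a median of 40.6 RPKM against 3.51 RPKM and differed by 2.00 in set A and 0.60 in set B.

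Comparing only cells that held Eomes left 18 cycling and 46 non-cycling cells and hardly moved the mitotic groups. The cycling cells were the same 18, and the non-cycling cells still had 0 or 1 rule genes. Mitotic genes could thus hardly have moved, and the part of cell type in their differences was not tested. The spindle list then had 28 of 30 genes higher with a median of 3.07, and S phase genes a median of 0.96. Of the 384 higher genes, 311 passed again and 356 passed in all. Of the intermediate progenitor genes 2 of 14 were then higher in place of 4, Insm1 at 2.07 and Gadd45g at 1.65, and the median was 0.31. Of 10 measured radial glia genes 3 were higher there, with a median of 0.47. Eomes, on which these cells were chosen, stood at 1.07 (1.41 in set A and 0.66 in set B) and Neurog2 at 1.04 (0.94 and 1.24).

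Radial glia genes were detected unevenly. Of 22 listed genes 12 were not measured, of which 6 were at 0 in every E15 cell, Hes1, the Notch target of radial glia, among them. Sox2, a factor of neural stem cells, was detected in 3 of 18 cycling cells and 1 of 84 non-cycling cells, and Hes5 in 0 and 1. Pax6, the radial glia factor that acts before Eomes, was found in 6 of 18 and 16 of 84 cells, with at most 23.9 and 31.4 RPKM and a difference of 0.59. Vim, an intermediate filament gene, differed by 0.11. The 10 measured genes had a median difference of 0.58 (0.74 in set A and 0.36 in set B). Intermediate progenitor genes had 0.65 and all genes 0.19. In the matched pairs the medians were 0.63 for radial glia and 0.64 for intermediate progenitor genes. Of the 10 genes, 2 were higher, beside 4.34% of all genes. These were Dbi, an acyl-CoA binding protein, at 2.21 and Gli3, a factor of Hedgehog signalling, at 1.13. In the matched pairs neither passed in both sets, with 0.88 and 3.11 for Dbi and 1.29 and 0.90 for Gli3 in set A and set B. Dbi was detected in 13 of 18 and 18 of 84 cells, with medians of 11.4 and 0 RPKM. Sox9 differed by 1.24 but by 0.94 in set A. Fabp7, a fatty acid binding protein of radial glia, was found in 8 of 18 and 35 of 84 cells, with mean levels of 22.5 and 17.4 RPKM. The sample is labelled as glutamatergic progenitors. Of the radial glia list, Hes1, Hes5 and Sox2 were thus at or near 0 in most cells of both classes, while Fabp7, Sox9 and Dbi were found in part of them.

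Cycling cells also held transcripts of neurons. Neurod6, a factor of newborn and mature glutamatergic neurons, was detected in 18 of 18 cycling cells at 2.11 to 1733 RPKM (median 750) and in 81 of 84 non-cycling cells at 0 to 2287 RPKM (median 695). The classes overlapped fully, and the difference was -0.02, with 1.04 in set A and -1.17 in set B, and 0.41 without the cell with Cajal-Retzius genes. Neurod1, an earlier neurogenic factor, was in 18 of 18 and 74 of 84 cells, at medians of 100 and 72.4 RPKM. Slc17a6, the vesicular glutamate transporter VGLUT2, was the 1 glutamatergic gene counted as higher: it had 0 to 354 RPKM (median 46.3) against 0 to 438 RPKM (median 9.29), and differed by 1.64 in set A and 1.497 in set B. It stayed above 0 but under 1 in one of the sets with the 13 cells alone (2.40 and 0.93), among cells with Eomes (0.81 and 1.30) and in the matched pairs (0.49 and 2.08). Ncam1, a neural adhesion molecule, was the 1 of 20 measured pan-neuronal genes that was higher, beside 4.34% of all genes. It differed by 1.22, and the pairs gave 0.94 in set A and 1.79 in set B.

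The glutamatergic and pan-neuronal lists lay below the median of all genes. Of 18 glutamatergic neuron genes, 1 was higher and 2 were lower, beside 4.34% and 0.485% of all genes. Their median was -0.28 (-0.05 in set A and -0.50 in set B). The 20 pan-neuronal genes had a median of -0.28, and 14 of them were below 0. Dcx, a microtubule protein of migrating neurons, was in 18 of 18 and 82 of 84 cells, at medians of 30.4 RPKM (2.52 to 121) and 63.0 RPKM (0.68 to 291), a difference of -0.98. Nrp1, a semaphorin receptor of axons, had medians of 24.4 and 56.9 RPKM. The AMPA receptor gene Gria2 gave -3.11 in set A and -0.09 in set B. In the 16 pairs matched on detected genes the medians were -0.63 for glutamatergic and -0.65 for pan-neuronal genes, beside 0.01 for all genes.

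**Figure D4:**
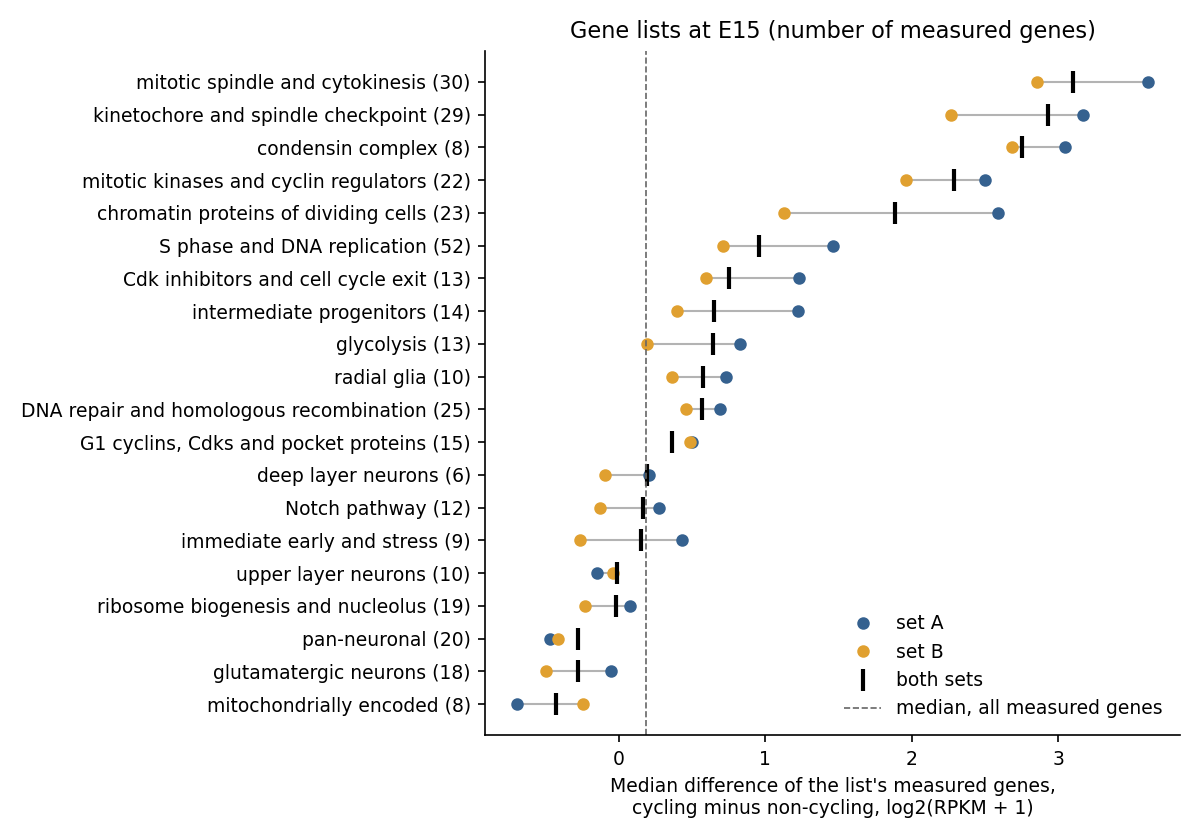
Median difference of the measured genes of each list (x axis, log2(RPKM + 1), cycling minus non-cycling; y axis, list and number of measured genes), for set A, set B and both sets, with a dashed line at the median of 0.19 over all genes. The mitotic lists lie between 2.29 and 3.10, S phase at 0.96, and the glutamatergic, pan-neuronal and mitochondrially encoded lists below 0.

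Of the 43 lower genes 40 stood in none of the lists, so no group is named for them. The 5 described first were chosen from the 15 named by size. Chl1, a neural cell adhesion molecule, had 0 to 40.9 RPKM in cycling cells (median 0.093) and 0 to 146 RPKM in non-cycling cells (median 20.1), and was detected in 5 of 18 and 63 of 84. Its difference was -2.62 (-3.43 in set A and -1.87 in set B), and -1.95 among cells with Eomes. Myt1l, a zinc finger factor that holds the neuronal programme, was found in 6 of 18 and 67 of 84 cells, with medians of 0 and 14.8 RPKM, and gave -3.70 and -1.003 in the 2 sets. Cntn2, an axonal adhesion molecule (TAG-1), was detected in 1 of 18 and 47 of 84 cells, at most at 8.48 RPKM in cycling cells, a difference of -1.74. Sema6d, a guidance molecule, differed by -2.07 and reached at most 10.4 RPKM in cycling and 390 RPKM in non-cycling cells. Bcl11b (Ctip2), the factor of subcortical projection neurons, was found in 8 of 18 and 63 of 84 cells and gave -1.51 and -1.64 in the 2 sets. In the matched pairs set B gave -0.58 for Cntn2 and -0.82 for Bcl11b. All 5 genes were at 0 in some non-cycling cells, so none separated the classes.

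The other lower genes named by size were Fam84a at -2.40, the orphan receptor Gpr45 at -2.15, Clmp, an adhesion molecule, at -2.08, Fam49a at -2.05, Sh3bgrl2 at -1.72, the latrophilin Adgrl2 at -1.70, the catenin Ctnnd2 at -1.67, Mpped1 at -1.62, the imprinting factor Zfp57 at -1.57 and Tmem59 at -1.55. All 15 lower genes named by size and the 14 higher ones shown kept their direction in every alternative run. They were chosen for passing in both sets of these same cells, so this was largely fixed by the choice and is no support. The size of their differences did not always hold. With the 13 cells with 17 to 20 rule genes, Mpped1 gave -1.03 and Tmem59 -0.99. Sh3bgrl2 came closer to 0 than -1 with at least 3 rule genes for cycling cells, and Mpped1 and Bcl11b did with rule genes counted above 0 RPKM. With the 5 other cells as cycling, all the higher genes named by size were smaller by over 1.5 times, and Kpna2, Cks1b, Tacc3, Hmgb2, Cdca3, Kif23 and Prc1 were under 1. In that comparison of 5 cells 481 genes were lower and 180 higher, with a median of all genes of -0.08. The number of lower genes was 190 in the matched pairs, of which 25 were among the 43.

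Few layer, Notch or metabolic genes passed the fold, but over all genes only 4.34% were higher and 0.485% lower. A count of 0 in lists this short therefore says little about the group. Of 10 measured upper layer genes 1 was lower, Unc5d, a netrin receptor of cells in the subventricular zone. It gave -1.24 (-1.37 in set A and -1.24 in set B, and -0.88 with the 13 cells alone). Of 6 measured deep layer genes 1 was lower, Bcl11b, which is counted in the glutamatergic list too. Tbr1, the deep layer factor that follows Eomes, was in 11 of 18 and 58 of 84 cells and gave 0.23. Lhx2, a factor of cortical progenitors, was detected in 18 of 18 cycling cells. Among 12 measured Notch genes, 19 genes of ribosome biogenesis, 13 of glycolysis and 9 of immediate early and stress responses, none was higher or lower. Their medians were 0.17, -0.02, 0.64 and 0.16. The glycolysis median was 0.83 in set A and 0.19 in set B, and over all cells near the 0.65 of the intermediate progenitor list. Gapdh, the glycolytic enzyme, differed by 1.71 but by 0.68 in set B. The 8 measured mitochondrially encoded genes were all below 0, with a median of -0.43, beside the lower mitochondrial share given above.

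Markers of other cell types were almost absent. No gene of the lists for oligodendrocyte precursors and astrocytes (11 genes), microglia (10), endothelium (8), pericytes and meninges (9) or erythroid cells (8) was measured, and a cycling cell reached 1 RPKM for at most 1 gene of any of these lists. Of 15 interneuron genes, 12 were at 0 in every E15 cell and 1 was measured, Sp8, detected in 2 of 18 and 5 of 84 cells.

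The same rule was applied to P2 cells for comparison, which share no cells with E15. It gave 18 cycling and 72 non-cycling cells, with 18 cells in the between class. The cycling P2 cells had a median of 11 rule genes against 19.5 at E15, and a median of 2426.5 detected genes, beside 3301 at E15, and the part of this in the counts was not tested. At P2, 232 of 7545 genes were higher (3.07%) and 40 lower (0.53%). Of the spindle list 9 of 30 genes were higher, with a median of 1.71 (3.02 in plate 1 and 0.60 in plate 2), beside 28 of 30 and 3.10 at E15. The S phase list gave 0.94 at P2 and 0.96 at E15. The 14 higher genes shown had differences above 0 in both P2 plates, from 5.37 for Pbk to 1.64 for Prc1. Of the 15 lower genes, Chl1 gave -0.74, Fam84a -2.14 and Zfp57 -1.79 at P2, while Ctnnd2 gave 0.95. Pax6 differed by 2.51 at P2, in 17 of 18 cycling and 21 of 72 non-cycling cells, and by 0.59 at E15, and Ccnd2 by 3.14 and 1.08. Age and dissected region differ together between the samples and cannot be told apart, and the differences between the ages were not tested.

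**Figure D5:**
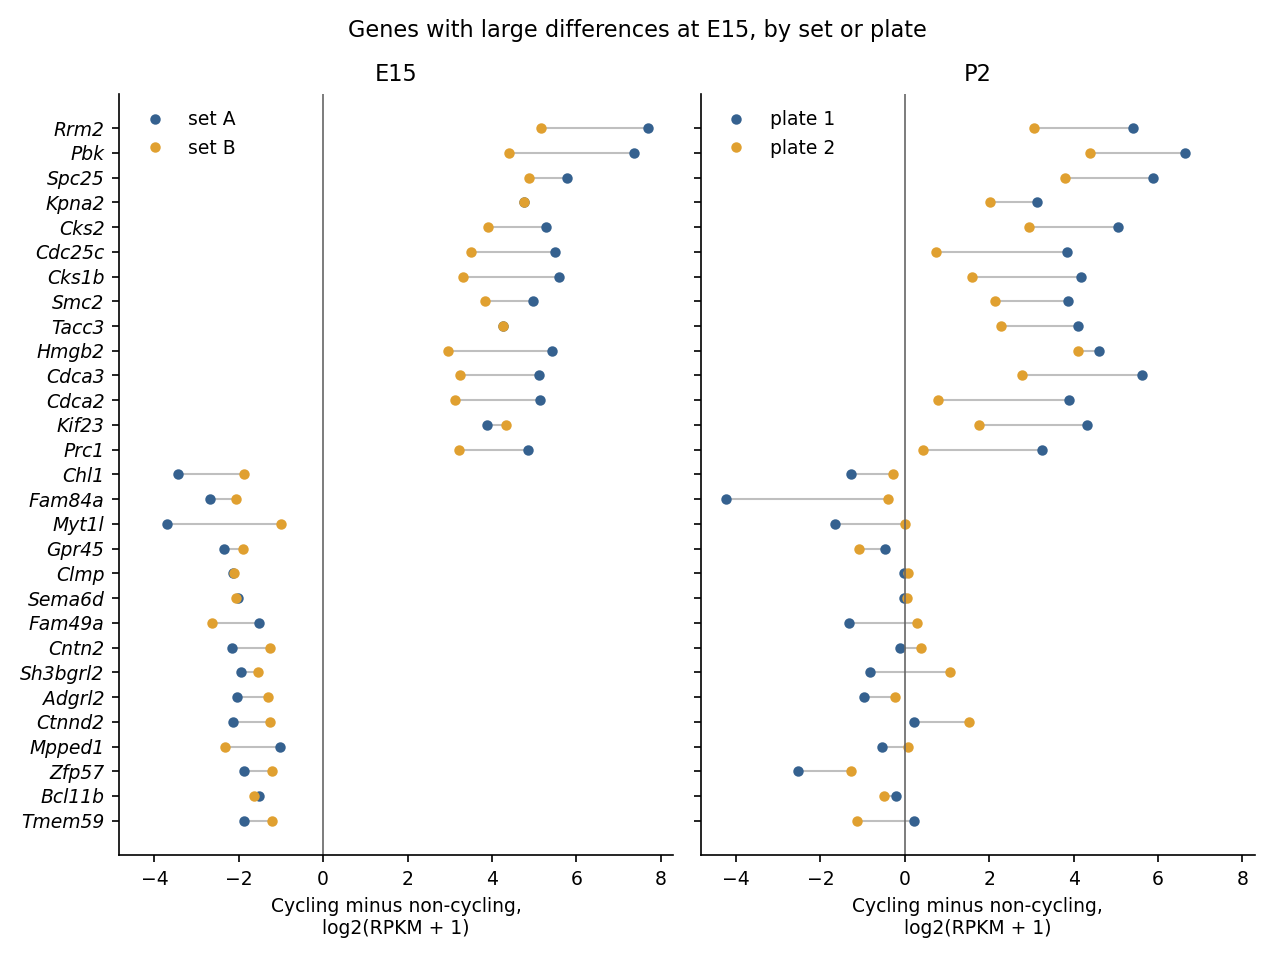
Difference between cycling and non-cycling cells (x axis, log2(RPKM + 1)) for 14 higher and 15 lower genes named by size at E15 (y axis), by set at E15 (left) and by plate at P2 (right). The 14 higher genes are above 0 in both sets and both plates, while of the 15 lower genes Ctnnd2 is above 0 in both P2 plates and several others have 1 plate on each side of 0.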

How the data were processed

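RNA was measured in single tdTomato-positive cells at E15 and P2. Per the submitters' processing notes, reads were demultiplexed with bcl2fastq 2.15.0.4, trimmed with cutadapt 1.9.1, aligned with STAR to GRCm38.p4 and counted per gene with featureCounts. The deposited values are RPKM, in 1 table per age with a column per cell and 46983 gene names. The gene annotation, the strand option and the totals used for scaling are not given in the sources used here. With exon lengths from GENCODE M21 for 45646 names, values worth under 20 reads were read as multiples of a single read, and a median of 81.7% of them per cell came out within 0.02 of a whole read at E15 and 79.5% at P2. This gave read totals with a median of 6.50 M at E15 and the reads assigned to genes. 1 P2 column, 0 for every gene, was left out.

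Detection was RPKM of at least 1. A gene was measured when detected in 10% or more of cycling or of non-cycling cells. Differences are means of log2(RPKM + 1), with a pseudocount of 1, and need a size of 1 over all cells and in both sets to count. Intervals are exact (Clopper-Pearson, 95%), and a count of 0 is read against 3 cells. The reads carry no molecular identifiers and may repeat a molecule, so both cover counting error only. Named genes are the 15 largest differences in each direction among genes with detection in 25% or more of a class, up to 4 measured genes with the largest absolute difference from each of 27 lists, and 20 genes by name. The largest differences exclude predicted or clone-named models, pseudogenes and genes that differ by sex (Xist, Tsix, the Y chromosome). Other genes are named as chosen after their values were seen. Fabp7, Reln, Calb2 and Trp73, members of the marker lists, also fall outside this naming and are to be read in the same way. 1 of the named genes is not reported here. The members, the lists and the rule were chosen with earlier results of these data known. Another gene overlaps the exons of 40 of the 109 named genes in GENCODE M21, 8 of them among the 30 largest. Each age being 1 sample, nothing was tested. Alternatives changed the pseudocount, the scale, the filter, the class limits and the cells kept. The work was done in Python 3.11.15 (pandas 2.3.3, numpy 2.4.6, matplotlib 3.10.9, scipy 1.17.1). The comparison had first been tried on non-cycling E15 cells split at random, with some genes raised or lowered by known factors.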

Additional observations from a re-analysis of the deposited data

Results flagged for a closer look

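In 5 of 97 named genes measured at both ages (5.15%), both E15 sets differed in one direction and both P2 plates in the opposite one. Over all 6837 genes measured at both ages outside the rule, 678 did so (9.92%), so the share among the named genes is no larger than in general. This is a description of 1 sample per age, and the difference between the ages was not tested. Ctnnd2, a neuronal catenin, gave -1.67 at E15 (-2.14 and -1.27) and 0.95 at P2 (0.22 and 1.51). Slc17a6, the glutamate transporter VGLUT2, gave 1.55 at E15 (1.64 and 1.497) and -0.52 at P2 (-0.59 and -0.66). Tbr1 gave 0.23 at E15 (0.42 and 0.03) and -0.66 at P2 (-1.35 and -0.05), with 1 value close to 0 at each age. The mitochondrially encoded mt-Nd4 gave -0.49 at E15 (-0.78 and -0.26) and 0.60 at P2 (0.44 and 0.76). Dusp1, an immediate early phosphatase gene, gave -0.64 at E15 (-0.11 and -1.22) and 0.45 at P2 (0.39 and 0.48).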

How the results depend on the processing

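The 18 cycling cells, 84 non-cycling cells and 1 sample set the precision, and depth limits what a value of 0 means. No paired analysis was possible because the numbers in the labels only name single cells. The pairs given here match cells on detected genes. A pseudocount of 0.1 gave 995 higher and 156 lower genes and medians of 5.30 for spindle, 1.82 for S phase, 1.13 for radial glia, 1.23 for intermediate progenitor and -0.38 for pan-neuronal genes. The log2 of mean RPKM gave 620 lower genes and medians of 4.04, 1.85 and -0.40 for spindle, S phase and pan-neuronal genes, and the TPM scale gave 904 higher and 159 lower genes and 5.06, 1.63 and -0.43. With no filter, the medians were 0.14 for radial glia and -0.22 for pan-neuronal genes. With at least 10 rule genes for cycling cells, 757 genes were higher and the medians were 4.01 for spindle, 0.92 for radial glia and -0.22 for pan-neuronal genes. With at least 3, 14 genes were lower and the spindle and pan-neuronal medians were 2.38 and -0.14. Rule genes above 0 RPKM gave 231 higher genes and 2.24 and -0.33, and at 5 RPKM the pan-neuronal median was -0.51. That median was -0.38 with 0 rule genes in non-cycling cells, -0.34 without cells with few detected genes, -0.47 (with 66 lower genes) without cells above 20% mitochondrially encoded RPKM, and -0.38 without the 8 cells of set B with title numbers 62 to 69. The 16 pairs on detected genes gave 190 lower genes and medians of -0.63 for glutamatergic, -0.65 for pan-neuronal and 0.29 for Cdk inhibitor genes, and Ccnd2 (-0.044) and Hes6 (-0.066) changed sign. No non-cycling cell was above the cycling median for S phase genes, so that alternative left the values as they were. Leaving out each set, where 1 set alone must pass, gave 852 to 1606 higher and 230 to 360 lower genes. The medians then ran from 2.86 to 3.68 for spindle, -0.60 to -0.051 for glutamatergic, -0.47 to -0.41 for pan-neuronal and 0.67 to 1.23 for Cdk inhibitor genes. In a comparison added after the data were seen, the 5 cells with 5 to 9 rule genes alone gave 180 higher and 481 lower genes and medians of 0.79 for spindle, 0.043 for S phase, -0.15 for radial glia and -0.65 for glutamatergic genes. Against the 18 cells the sign changed there for Ckap2l (-0.19), Cenpl (-0.14), Smc4 (-0.90), Tipin (-0.33), Chek2 (-0.090), Chek1 (-0.078), Exo1 (-0.000285), H2afz (-0.0060), Cdkn2d (-0.26), Nop10 (-1.28), Tpi1 (-0.27), Btg2 (-0.037) and Pcna (-0.59). The cause of these changes was not tested.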
